A study of Mus musculus with 16 samples.

Results

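CX3CR1+ macrophages were compared with F4/80- myeloid cells that were sorted from the same tissue 14 days after reconstruction of the anterior cruciate ligament (ACLR) in mice. The comparison used 4 of the 16 RNA-seq libraries of the series, 2 of each population, taken by their labelled gate and day. No measured value set which libraries entered. The comparison and the gene lists were, however, chosen with earlier results of these data known. All mice were C57BL/6 wild-type (WT) males aged 12 weeks, all had undergone ACLR, and no unoperated tissue entered the comparison. The tissue was the interface between the tendon graft and the wall of the bone tunnel, with a sliver of bone, and each library was made from a pool of 5 to 7 mice. Both gates held live CD45+ cells that lacked lineage markers and Ly6G and carried CD11b. CX3CR1+ macrophages were in addition F4/80+ and CD9-, whereas the F4/80- gate was set by the absence of F4/80 alone and by neither CX3CR1 nor CD9. The F4/80- libraries are therefore those of a mixed gate, and in such bulk libraries fewer cells of a type and less RNA per cell cannot be told apart.

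F4/80, the product of Adgre1, is an adhesion receptor that is acquired as mouse monocytes become macrophages, and CX3CR1 is the receptor for the chemokine fractalkine on monocytes and monocyte-derived macrophages. CD11b, by contrast, is shared by nearly all myeloid cells. A CD11b+ Ly6G- F4/80- gate can therefore hold immature monocytes, dendritic cells, basophils and immature granulocytes. Macrophages in a healing tissue clear dead cells and matrix, handle the lipid that this brings, present antigen, and answer type I interferon with a shared set of antiviral genes.

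Sequencing depth was similar in the 4 libraries, at 9996159 to 11939727 counts, and mitochondrial transcripts took 9.86% to 13.9% of them. Levels are given below as CPM (counts relative to the TMM-scaled library size), with replicate 1 before replicate 2. Fold changes are log2 values of CX3CR1+ over F4/80-, so that positive values are higher in CX3CR1+ macrophages. Their standard errors (SE) were back-calculated, as the size of the fold change over the square root of edgeR's F statistic. For genes with almost no counts in 1 population, the SE understates how far the fold change can move. Replicate libraries correlated at r = 0.982 (CX3CR1+) and 0.988 (F4/80-) on log2 CPM across the 11998 genes tested, against 0.870 between the means of the populations. Genes are not independent replicates. A library of the CX3CR1+ population, replicate 2, stood apart in transcripts of matrix-producing and red blood cells. The summed level of the 5 stromal genes tested was 6.86 and 88.8 CPM in the CX3CR1+ libraries and 4.06 and 5.45 CPM in the F4/80- libraries, and that of the 4 erythroid genes was 9.64 and 68.2 CPM against 7.39 and 9.11 CPM. The results that rest on that library are given at the end.

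At day 14, 2578 of the 11998 genes (21.5%) were differentially expressed (DEGs, at least 2-fold with an adjusted p below 0.05 in edgeR's quasi-likelihood test), 1334 of them (11.1%) higher and 1244 (10.4%) lower in CX3CR1+ macrophages. The CPM of the populations did not overlap for 9203 genes (76.7%), with 2 libraries in each. The largest differences lay on the F4/80- side. Of the DEGs with a difference of at least 8-fold, 180 were higher and 397 lower in CX3CR1+ macrophages, and at 32-fold or more the counts were 29 and 183. The median fold change over all genes tested was 0.05, which is the background for the list medians below. The shares of 11.1% higher and 10.4% lower are the background for the list counts.

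**Figure D1:**
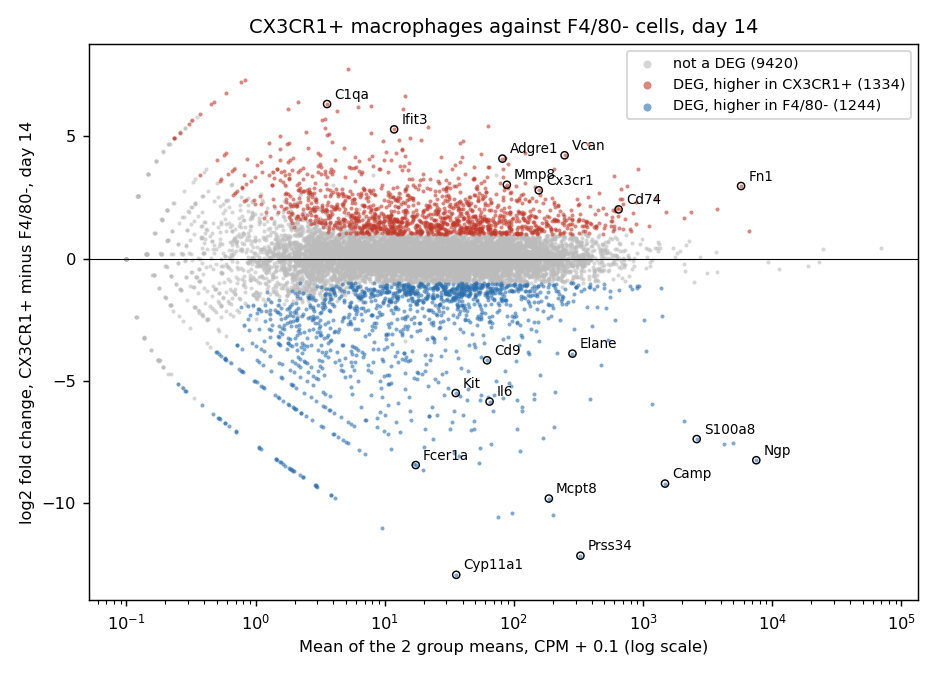
Log2 fold change of CX3CR1+ macrophages over F4/80- cells at day 14 (vertical axis) against the mean level of the 2 populations in CPM (horizontal axis, log scale), with 1 point per gene tested. The 1334 genes higher in CX3CR1+ macrophages are red and the 1244 higher in F4/80- cells are blue. Among the genes furthest down were the basophil transcripts Cyp11a1, Prss34 and Mcpt8.

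The genes of the gates themselves were measured first, since they check the labels. Adgre1 (chr17:57358691-57483527, mm10), which encodes F4/80, was at 142 and 165 CPM in CX3CR1+ macrophages and at 8.84 and 9.19 CPM in F4/80- cells (log2 fold change 4.09, SE 0.25, adjusted p = 1.4e-08). Cx3cr1 was at 252 and 292 CPM against 37.5 and 41.0 CPM (2.79, SE 0.18, adjusted p = 2.3e-08). The F4/80- population thus held measurable Cx3cr1 mRNA in both libraries, at a level below either CX3CR1+ library. Cd9, whose protein was gated out of the CX3CR1+ population, was at 6.6 and 6.48 CPM against 113 and 121 CPM (-4.16, SE 0.15, adjusted p = 1.7e-10). Itgam, the gene of CD11b, was at 176 and 193 CPM against 186 and 202 CPM, overlapping ranges with a log2 fold change of -0.07 (SE 0.16, adjusted p = 0.77). Ptprc (CD45) was higher in CX3CR1+ macrophages by 1.43 (SE 0.12). Ly6g was at 0.434 and 0.648 CPM against 8.19 and 10.1 CPM, where Ly6G+ neutrophils of the same day averaged 276 CPM. Kit was at 2.0 and 1.02 CPM against 61.5 and 76.6 CPM, although c-Kit and CD34 were among the lineage antibodies of the study, and Cd34 was at 7.12 and 4.26 CPM against 14.8 and 10.2 CPM (-1.14, SE 0.40, adjusted p = 0.036), a call that was lost without CX3CR1+ replicate 2 (-0.82, adjusted p = 0.26) or F4/80- replicate 1 (-0.85, adjusted p = 0.24). Of the other lineage antigens, Cd3e and Klrb1c (NK1.1) were below the level needed for testing in every group.

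Basophil genes separated the populations most. Of the 11 basophil and mast cell genes tested, 10 were lower in CX3CR1+ macrophages and none was higher, with a median log2 fold change of -9.82, or -8.05 when genes with almost no counts on the low side were set to their bound. Prss34 (chr17:25298394-25300165), the basophil protease mMCP-11, was at 0.0869 and 0.185 CPM in CX3CR1+ macrophages and at 702 and 605 CPM in F4/80- cells. With 3 counts in the CX3CR1+ libraries together against 17123, the ratio was 4884, with an exact 95% interval for counting error only of 1671 to 23680. Mcpt8, which encodes mMCP-8 and marks basophils rather than mast cells, was at 0.261 and 0.555 CPM against 391 and 352 CPM (-9.82, SE 0.52, adjusted p = 4.2e-09). Gata2, the transcription factor required for basophil and mast cell development, was at 0 and 0.555 CPM against 397 and 402 CPM (-10.49, SE 0.54, adjusted p = 3.9e-09). Its fold change ran from -15.46 to -9.49 over the alternative fits described below. In each of these genes both F4/80- libraries were high and both CX3CR1+ libraries were at or near 0.

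The IgE receptor and the mediators of these cells followed the same split. Ms4a2, the beta chain of the high-affinity IgE receptor, was at 0.174 and 0 CPM against 160 and 142 CPM, a count ratio of 1692 (interval 468 to 13970), and Fcer1a, its alpha chain, had a ratio of 384 (106 to 3177). Cpa3, a granule carboxypeptidase, had a ratio of 1436 (490.9 to 6963). Cyp11a1, which begins steroid synthesis, had no count in either CX3CR1+ library and was at 74.1 and 68.4 CPM in F4/80- cells, at least 265-fold higher against a floor of 3 counts per library. Slc18a2, a vesicular monoamine transporter, was likewise at least 70.2-fold higher. Hdc, the enzyme that makes histamine, was at 4.95 and 7.22 CPM against 284 and 274 CPM (-5.52, SE 0.32). Cd200r3, a CD200 receptor family gene of basophils and mast cells, was at 0.174 and 0.370 CPM against 75.2 and 73.6 CPM (-8.06, SE 0.57). The mast cell proteases Tpsb2, Cma1, Mcpt4 and Tpsab1 were below the level needed for testing. Hpgds, which makes prostaglandin D2, was at 1.39 and 2.78 CPM against 1.16 and 0.976 CPM and did not pass the test (adjusted p = 0.27).

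Cytokine genes that basophils can transcribe moved with that list. Il4 had a count ratio of 170 (30.2 to 6759), at 0.0869 and 0 CPM against 6.6 and 8.79 CPM, and Il13, which had no count in CX3CR1+ macrophages, was at 5.29 and 3.66 CPM in F4/80- cells, at least 16.6-fold higher. Il6 (chr5:30013114-30019981), a pleiotropic inflammatory cytokine, was at 1.91 and 2.5 CPM against 133 and 122 CPM (-5.85, SE 0.33, adjusted p = 7.6e-09). Csf1, the ligand of the macrophage growth factor receptor, was at 4.08 and 6.29 CPM against 175 and 178 CPM (-5.09, SE 0.26, adjusted p = 3.9e-09). Its receptor Csf1r lay the other way, at 765 and 812 CPM in CX3CR1+ macrophages against 125 and 118 CPM (2.70, SE 0.20). The receptor for IL-18 also lay on the F4/80- side. Il18rap was at 4.26 and 3.33 CPM against 195 and 222 CPM (-5.78, SE 0.17, adjusted p = 1.2e-11) and Il18r1 at 0.0869 and 0.740 CPM against 30.2 and 31.3 CPM (-6.22, SE 0.48). The IL-33 receptor Il1rl1 was lower in CX3CR1+ macrophages by 4.25 on the log2 scale (SE 0.43). Which cells of the F4/80- gate carried these transcripts was not tested.

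Genes of neutrophil granules formed the next group. Of the 16 mature neutrophil genes tested, 14 were lower in CX3CR1+ macrophages and 1 was higher, with a median of -5.43. Ngp, a secondary granule protein, was at 31.4 and 67.3 CPM in CX3CR1+ macrophages against 14382 and 15582 CPM in F4/80- cells (-8.25, SE 0.66, adjusted p = 1.9e-07). Camp, the cathelicidin gene, was at 3.65 and 6.38 CPM against 2809 and 3089 CPM (-9.20, SE 0.52, adjusted p = 7.6e-09). Ltf (lactoferrin) lay at -7.59 (SE 0.67), S100a8 at -7.38 (SE 0.59), S100a9 at -7.53 (SE 0.58) and Lcn2 (lipocalin 2) at -6.65 (SE 0.45). In all 6 genes the lower F4/80- library exceeded the higher CX3CR1+ library, and replicate 2 was the higher of the CX3CR1+ libraries. The exception was Mmp8, neutrophil collagenase, which was at 151 and 163 CPM in CX3CR1+ macrophages against 17.8 and 20.8 CPM (3.02, SE 0.29, adjusted p = 1.0e-06).

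Differences within that list were uneven, and the 2 genes that follow were chosen after their values were seen, while others of mature neutrophils, such as Ly6g (-4.06, SE 0.57) and Cxcr2 (-4.59, SE 0.54), differed by more. Retnlg, a resistin-like gene of circulating neutrophils, was at 4.34 and 5.37 CPM against 10.5 and 12.3 CPM (-1.23, SE 0.34, adjusted p = 0.0096), and Mmp9 (gelatinase B) at 7.12 and 10.1 CPM against 28.3 and 44.7 CPM (-2.08, SE 0.52, adjusted p = 0.0051). Mmp9 lost its call without CX3CR1+ replicate 1 (-1.87, adjusted p = 0.059), and Retnlg lost it without that library (-1.10, adjusted p = 0.082) or without F4/80- replicate 2 (-1.13, adjusted p = 0.060). In the Ly6G+ neutrophil libraries of the same day these genes averaged 3495 and 6232 CPM. Csf3r, the receptor for G-CSF, was at 232 and 237 CPM against 145 and 164 CPM and stayed under the 2-fold threshold (0.60, SE 0.15).

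The genes of granulocyte-monocyte progenitors, and of the primary granules that promyelocytes make, were also lower in CX3CR1+ macrophages. That held for 12 of the 14 tested, and none was higher (median -3.08). Elane (neutrophil elastase) was at 40.8 and 31.0 CPM against 545 and 517 CPM (-3.89, SE 0.43, adjusted p = 3.8e-06), and Mpo (myeloperoxidase) at 167 and 120 CPM against 1968 and 1987 CPM (-3.78, SE 0.38, adjusted p = 1.7e-06). Gfi1, a repressor needed for granulocyte differentiation, was at 0 and 0.370 CPM against 37.8 and 42.1 CPM (-7.72, SE 0.45, adjusted p = 9.4e-09). Its fold change ran from -12.14 to -6.74 over the alternative fits. Fcnb, a ficolin of immature granulocytes, lay at -5.73 (SE 0.42), Ms4a3, a marker of that progenitor, at -5.76 (SE 0.56), and Myb, a regulator of progenitor proliferation, at -2.64 (SE 0.26). The Ly6G+ neutrophils of day 14 averaged 19.3 CPM of Elane and 59.2 CPM of Mpo, both below either F4/80- library. In F4/80- cells, then, Elane and Mpo were above their level in Ly6G+ neutrophils, while Retnlg, Mmp9 and Ly6g were far below it. Camp and Ngp of the mature neutrophil list were closer to it. Camp averaged 2949 CPM in F4/80- cells and 3468 CPM in Ly6G+ neutrophils, and Ngp averaged 14982 and 29523 CPM. No test was made between these populations.

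The machinery of DNA replication was lower in CX3CR1+ macrophages for 22 of 24 genes (median -1.52), and the 2 others, Pcna and Pola1, had the same sign at -0.94 and -0.95. Cdc6, which loads the replicative helicase, was at 16.8 and 14.7 CPM against 72.1 and 68.2 CPM (-2.16, SE 0.22, adjusted p = 1.5e-06). Rrm2, a subunit of ribonucleotide reductase, lay at -2.03 (SE 0.21), and Mcm2 to Mcm7, the helicase subunits, lay between -1.95 and -1.46. The replication genes were present in both populations, with Mcm6 at 132 and 105 CPM against 407 and 399 CPM. Genes of mitosis moved less. All 24 were lower in both CX3CR1+ libraries than in either F4/80- library, as were 35.6% of all genes tested, but only Cdk1 (-1.06, SE 0.16) and Tacc3 (-1.08, SE 0.21) reached the 2-fold threshold, and the median was -0.71. Mki67, the proliferation antigen Ki-67, was at 1750 and 1582 CPM against 3115 and 3375 CPM (-0.96, SE 0.21, adjusted p = 0.0020). Cdk1 and Tacc3 fell under 2-fold without CX3CR1+ replicate 2 (-0.92 and -0.94), leaving 1 mitosis gene called, whereas 6 were called without CX3CR1+ replicate 1 and 5 without F4/80- replicate 1. Without a fold threshold, 20 of the 24 passed at an adjusted p below 0.05.

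E2F factors switch on replication genes at the start of S phase through a short GC-rich site, so the promoters of the replication genes were searched for the letters TTTCCCGC or TTTGGCGC on either strand, from 250 bases before to 50 after the RefSeq start (GRCm38.p6). The letters were found in 8 of the 20 replication genes with a promoter in the table (40%), in 0 of 21 mitosis genes, in 3.72% of the promoters of all genes tested and in 1.80% of all 27025 promoters. The stretches around the match in 3 of them are shown 5′ to 3′ along the gene, with the matching letters in capitals. A match describes the sequence and is not evidence of a bound factor.
Cdc6 (chr11:98907973-98908060, + strand): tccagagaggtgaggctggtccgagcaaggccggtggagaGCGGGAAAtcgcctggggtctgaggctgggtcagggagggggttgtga
Hells (chr19:38930888-38930975, + strand): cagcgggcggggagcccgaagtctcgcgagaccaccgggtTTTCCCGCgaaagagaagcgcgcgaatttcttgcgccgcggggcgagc
Mcm6 (chr1:128359768-128359855, - strand): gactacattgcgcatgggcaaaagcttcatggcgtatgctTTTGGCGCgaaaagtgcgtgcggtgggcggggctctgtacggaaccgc

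Transcripts of other lineages in the F4/80- gate differed as well. Siglech, which marks plasmacytoid dendritic cells, had 1 count in CX3CR1+ macrophages and was at 4.57 and 3.90 CPM in F4/80- cells, a count ratio of 95.0 (16.7 to 3785). Gzmb, a granzyme of killer lymphocytes that basophils and plasmacytoid dendritic cells can also transcribe, was at 0 and 0.0925 CPM against 9.50 and 15.4 CPM, a ratio of 274 (48.8 to 10850), and Nkg7, a killer cell granule gene, lay at -5.34 (SE 0.41). All 4 tested genes of the list for natural killer and innate lymphoid cells were lower, although Klrd1 (-2.14, adjusted p = 0.037) lost its call without any of the 4 libraries (adjusted p = 0.088 to 0.16) and with the replicate block (0.061). The tested genes of this list include Il1rl1, the IL-33 receptor gene given above with the cytokine genes of basophils. The defining Ncr1, Prf1, Eomes and Il2rb were below the level for testing. The 2 T cell genes tested summed to 2.26 and 4.90 CPM against 12.9 and 12.8 CPM. The 7 B and plasma cell genes tested summed to 236 and 238 CPM against 790 and 642 CPM, with 4 lower and none higher. Jchain, the joining chain of secreted antibody, was at 7.12 and 5.64 CPM against 136 and 72.9 CPM (-4.03, SE 0.43), and Igkc lay at -3.36 (SE 0.50). Of the 4, Dntt and Iglc2 lost the call without either CX3CR1+ library. Cd79a and Ms4a1 of B cells were not testable. Siglecf and Alox15, genes of eosinophils, lay at -4.77 (SE 0.39) and -3.92 (SE 0.27), while the ribonuclease genes Ear1, Ear2 and Ear6 of the same list lay the other way (2.07, 1.59 and 2.06). Only Ear2 of these 3 kept its call without any single library. The eosinophil granule genes Prg2 and Epx did not pass (-0.34 and -0.38) and were at 10.1 to 65.1 CPM in all 4 libraries, compared with means of 5065 and 2433 CPM in the CD9+ macrophage libraries of day 14.

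**Figure D2:**
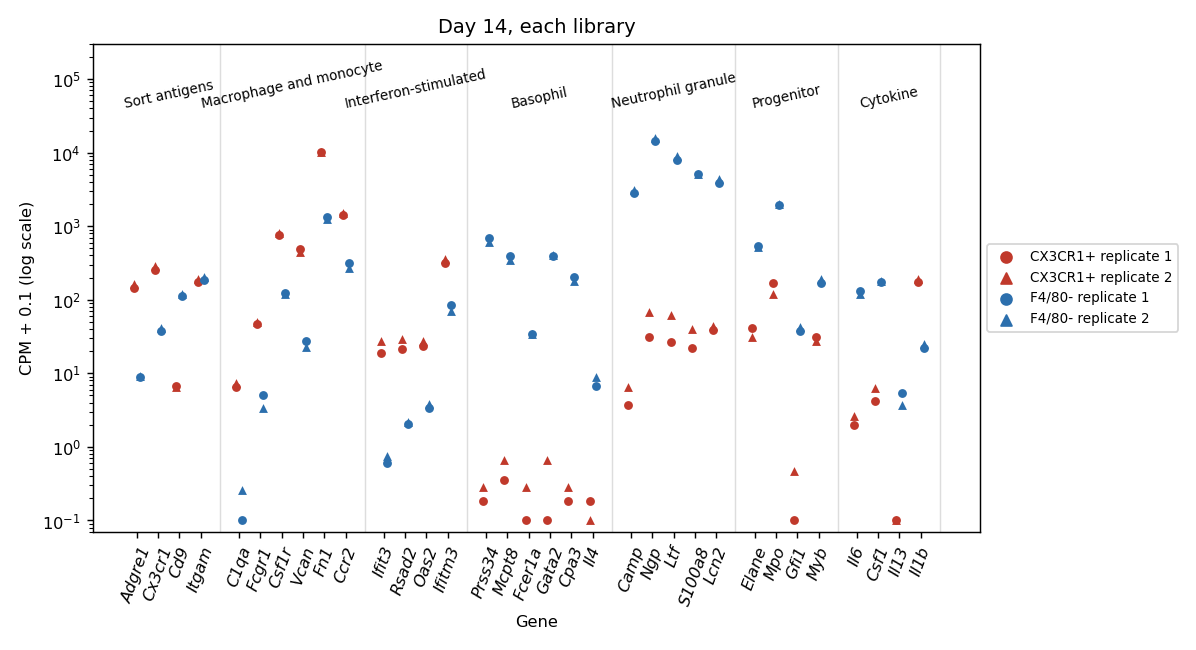
Level of selected genes in each of the 4 libraries of day 14, as CPM plus 0.1 on a log scale, with CX3CR1+ macrophages in red, F4/80- cells in blue, circles for replicate 1 and triangles for replicate 2. Itgam overlapped between the populations (176 to 202 CPM), whereas Prss34 and Cpa3 were below 1 CPM in both CX3CR1+ libraries and Il13 had no count there.

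On the CX3CR1+ side, 16 of the 19 genes tested for macrophage identity were higher and none was lower, with a median of 2.70. Adgre1, the gene of F4/80, is among the 16, and its direction followed from the sort. Maf, a transcription factor of macrophages, was at 32.2 and 41.6 CPM against 1.45 and 1.06 CPM (4.86, SE 0.45, adjusted p = 6.3e-07). Fcgr1, the high-affinity IgG receptor CD64, was at 47.4 and 50.1 CPM against 4.93 and 3.25 CPM (3.56, SE 0.50). The complement genes C1qa, C1qb and C1qc were at 6.43 to 12.6 CPM in CX3CR1+ macrophages and at 0 to 0.244 CPM in F4/80- cells, and the count ratios were 89.4 (24.3 to 745) for C1qa and 265 (47.1 to 10520) for C1qc. The CD9+ macrophages of day 14 averaged 90.7 to 153 CPM of these 3 genes. Siglec1, the sialic acid receptor CD169, was at 26.8 and 29.3 CPM against 0 and 0.569 CPM (6.65, SE 0.74). The receptors Timd4 and Vsig4 of long-lived tissue macrophages were not testable, Folr2 was at 0 and 0.648 CPM against 0.145 and 0 CPM, and Cd163 and Lyve1 did not pass (0.57 and -2.0).

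Genes of blood monocytes were high in the same libraries. Fn1, which encodes fibronectin, was at 10158 and 10169 CPM against 1350 and 1248 CPM (2.97, SE 0.24, adjusted p = 2.2e-07). Vcan (versican, chr13:89655312-89742509) was at 491 and 444 CPM against 27.3 and 22.7 CPM (4.23, SE 0.26, adjusted p = 1.5e-08) and Ccr2, the receptor for the monocyte chemokine CCL2, at 1423 and 1525 CPM against 320 and 267 CPM (2.33, SE 0.23, adjusted p = 1.2e-06). Ly6c2, which encodes Ly6C of classical monocytes, was at 393 and 405 CPM against 324 and 317 CPM and did not pass (0.32, SE 0.20, adjusted p = 0.25). In total 6 of the 12 classical monocyte genes were higher and 2 lower, beside 11.1% and 10.4% of all genes tested. The lower ones were Chil3 (-2.33, SE 0.26) and Cd177 (-2.51, SE 0.36), which neutrophils also transcribe. Of 10 genes of nonclassical monocytes, 7 were higher and 1 lower, the lower being Pglyrp1, a granule protein of neutrophils (-4.74, SE 0.43). Cx3cr1, whose product set the CX3CR1+ gate, is among the 7. Adgre4 (EMR4) was at 69.4 and 86.1 CPM against 3.04 and 2.52 CPM (4.80, SE 0.30), Ace (angiotensin-converting enzyme) at 137 and 186 CPM against 8.12 and 10.7 CPM (4.10, SE 0.38), and Nr4a1, on which nonclassical monocytes depend, at 956 and 970 CPM against 238 and 267 CPM (1.93, SE 0.13).

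Among the genes with the largest differences on this side were several with other roles. Pla2g7, which degrades platelet-activating factor, was at 121 and 126 CPM against 2.46 and 3.25 CPM (5.43, SE 0.19, adjusted p = 1.1e-10). Ms4a4a, a membrane protein of macrophages, was at 73.7 and 73.6 CPM against 2.54 and 3.09 CPM (4.71, SE 0.32). Flt1, the VEGF receptor 1 that monocytes carry, was at 26.7 and 30.3 CPM against 2.03 and 1.71 CPM (3.92, SE 0.30, adjusted p = 1.2e-07). Sirpb1a, Sirpb1c and Gm5150, signal-regulatory proteins, lay at 4.92, 5.36 and 5.13, but they are near-identical copies whose reads the counting could divide arbitrarily.

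Genes for taking up and digesting particles were higher in CX3CR1+ macrophages. That held for 11 of 18 scavenger and efferocytosis genes (median 1.96), with Cd300lf alone lower (-1.13, SE 0.15). It also held for 15 of 26 lysosome genes (median 1.21), with Cd63 alone lower. The shares over all genes tested were 11.1% higher and 10.4% lower. Lrp1, an endocytic receptor for apoptotic cells and proteases, was at 1629 and 1730 CPM against 131 and 136 CPM (3.65, SE 0.25, adjusted p = 3.8e-08). Msr1, scavenger receptor A, was at 114 and 110.45 CPM against 10.5 and 11.4 CPM (3.36, SE 0.25), and Axl, a receptor for phosphatidylserine-bound Gas6, lay at 3.17 (SE 0.39). Its fellow Mertk was at no more than 1.85 CPM. Ctss, cathepsin S, which trims the invariant chain, was at 1273 and 1385 CPM against 174 and 168 CPM (2.96, SE 0.25), and Lgmn, an asparagine endopeptidase, lay at 2.98 (SE 0.33). Cd63, a tetraspanin of lysosomes and basophil granules, was at 2.0 and 4.16 CPM against 164 and 160 CPM (-5.72, SE 0.26, adjusted p = 1.3e-09).

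Lipid genes behaved alike, with 15 of 18 higher, beside 11.1% of all genes tested, and a median of 1.91. Cd9, whose protein was gated out of the CX3CR1+ population, alone was lower. Apoe, the apolipoprotein that carries cholesterol out of macrophages, was at 719 and 734 CPM against 26.7 and 29.4 CPM (4.69, SE 0.24, adjusted p = 3.9e-09). Cd36, a receptor for oxidised lipoprotein, was at 15.4 and 21.1 CPM against 0.652 and 1.63 CPM (4.01, SE 0.39), and Abca1, a cholesterol exporter, at 24.6 and 33.9 CPM against 3.33 and 3.99 CPM (3.0, SE 0.39). Lpl (lipoprotein lipase) lay at 2.55 (SE 0.28), Plin2, which coats lipid droplets, at 1.49 (SE 0.21), and Trem2, a lipid-sensing receptor of macrophages, at 1.49 (SE 0.37).

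Of the 22 Toll-like receptors and other sensors of microbial products, 15 were higher and none was lower (median 1.51). The endosomal RNA sensor Tlr7 was at 94.6 and 103 CPM against 11.2 and 11.6 CPM (3.11, SE 0.15, adjusted p = 2.4e-09), Tlr8 lay at 3.27 (SE 0.27) and Tlr13 at 2.93 (SE 0.20). Tlr4, the receptor for lipopolysaccharide, was at 28.3 in each library against 21.0 and 16.8 CPM and stayed under the threshold (0.58, SE 0.17), whereas its partners Cd14 and Ly96 were higher (1.82, SE 0.20, and 3.06, SE 0.53). Il1b was at 174 and 191 CPM against 22.2 and 25.1 CPM (2.95, SE 0.20, adjusted p = 2.6e-08) and Il18 at 7.90 and 6.38 CPM against 0.217 and 0.976 CPM (3.59, SE 0.64). Tnf lay the other way, at 22.5 and 20.7 CPM against 58.7 and 60.2 CPM (-1.46, SE 0.24, adjusted p = 2.0e-04). Of the 20 inflammatory cytokines and mediators tested, 3 were higher and 6 lower, beside 11.1% and 10.4% of all genes tested.

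Of 20 chemokine ligands, 9 were higher in CX3CR1+ macrophages and 2 lower, beside 11.1% and 10.4% of all genes tested, and 7 of the 20 had almost no counts in at least 1 population. Ccl2, which draws CCR2+ monocytes, was at 208 and 180 CPM against 34.3 and 29.4 CPM (2.61, SE 0.21, adjusted p = 1.9e-07), and Ccl6 lay at 1.81 (SE 0.25). Ccl3 and Ccl4, inflammatory chemokines, were the lower pair, with Ccl3 at 220 and 156 CPM against 490 and 454 CPM (-1.32, SE 0.24) and Ccl4 at 29.0 and 20.4 CPM against 165 and 152 CPM (-2.68, SE 0.28). Ccl12 had 17 counts in CX3CR1+ macrophages and none in F4/80- cells, at least 3.25-fold higher, but lost its call without any of 3 libraries (adjusted p = 0.13 without CX3CR1+ replicate 1, and 0.098 and 0.089 without F4/80- replicates 1 and 2). The neutrophil receptor Cxcr2 was at 1.74 and 1.48 CPM against 39.5 and 38.6 CPM (-4.59, SE 0.54).

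Interferon-stimulated genes were higher in CX3CR1+ macrophages across 3 lists. Of the 10 genes of an interferon-stimulated gene (ISG) score, 8 were higher and none was lower (median 2.60), of 33 other effectors 27 and none (median 2.5), and of 12 interferon-inducible GTPases 11 and none (median 1.93), beside 11.1% of all genes tested. Ifit3, an antiviral protein of the IFIT family, was at 18.7 and 27.0 CPM against 0.507 and 0.651 CPM (5.29, SE 0.69, adjusted p = 2.0e-05). Rsad2 (viperin) was at 21.0 and 28.9 CPM against 1.96 and 2.11 CPM (3.61, SE 0.29, adjusted p = 1.8e-07). Both populations had their libraries close together in these genes, and the F4/80- libraries were low but above 0. Oasl2, an oligoadenylate synthetase-like protein, lay at 3.96 (SE 0.35), Ifi204, a DNA sensor, at 3.88 (SE 0.28), Slfn5 at 3.68 (SE 0.25) and Gbp9, a guanylate-binding protein, at 4.34 (SE 0.54). Ifit3b is a near copy of Ifit3, and its value (4.54) may hold reads of either. Without F4/80- replicate 1, 7 of the 12 GTPases were called.

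Regulators of the pathway were higher in CX3CR1+ macrophages as well. Irf7, which amplifies the response and is itself induced by interferon, was at 101 and 111 CPM against 16.2 and 15.9 CPM (2.71, SE 0.25, adjusted p = 5.7e-07). Stat2 and Irf9, which are parts of the factor ISGF3, lay at 1.54 (SE 0.23) and 1.51 (SE 0.19). Among the targets, Ifit2 (0.46, adjusted p = 0.27) and Bst2 (0.79, adjusted p = 0.21) did not pass. The receptor chains Ifnar1 (1.33, SE 0.17), Ifngr1 (1.55, SE 0.11) and Ifngr2 (1.54, SE 0.15) were higher in CX3CR1+ macrophages, and Ifnar2 stayed under the fold threshold (0.77, SE 0.16).

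ISGF3 binds the interferon-stimulated response element, and its core was searched as GAAANNGAA on either strand in the same RefSeq promoter windows. It was found in 20 of 26 promoters of the effector list (76.9%), in 9 of 10 of the GTPases (90.0%) and in 4 of 8 of the score genes (50%), against 9.21% of the 8851 genes tested with a promoter and 9.76% of all 27025. Stretches of 89 bases around the matches are shown for genes of these lists with large differences, so that the shared letters can be seen (5′ to 3′ along the gene, matches in capitals, where TTCNNTTTC is the same motif on the other strand). The stretch of Ifit3b is identical to that of Ifit3. The lists were chosen for their known response to interferon, so that the matches describe these promoters and are no test of what drove the difference.
Ifit3 (chr19:34583334-34583422, + strand): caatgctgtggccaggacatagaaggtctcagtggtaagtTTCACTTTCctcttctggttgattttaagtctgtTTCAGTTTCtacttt
Ifit1 (chr19:34640740-34640828, + strand): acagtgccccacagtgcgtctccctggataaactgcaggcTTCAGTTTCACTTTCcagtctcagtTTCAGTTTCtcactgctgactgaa
Slfn5 (chr11:82951907-82951995, + strand): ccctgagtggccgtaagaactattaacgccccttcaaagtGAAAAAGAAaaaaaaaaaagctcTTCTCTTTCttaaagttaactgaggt
Rsad2 (chr12:26456523-26456611, - strand): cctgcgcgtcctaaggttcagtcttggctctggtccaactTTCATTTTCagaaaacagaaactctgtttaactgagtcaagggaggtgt
Isg15 (chr4:156200848-156200936, - strand): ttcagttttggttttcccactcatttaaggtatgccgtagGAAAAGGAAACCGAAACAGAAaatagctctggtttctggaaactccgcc

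In the printed stretches the first match lay 155 bases before the start in Ifit3, 109 in Ifit1 and 78 in Isg15, and Ifit1 and Isg15 held 3 matches each, all overlapping in Isg15. Isg15, a ubiquitin-like modifier, was at 6.69 and 7.68 CPM against 1.09 and 0.895 CPM (2.84, SE 0.48), and Ifit1 at 9.99 and 11.8 CPM against 0.580 and 1.06 CPM (3.74, SE 0.54).

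Genes of antigen presentation were higher mainly for class II. Of 15 class II genes 12 were higher and 1 was lower (median 1.62). Cd74, the invariant chain, was at 1013 and 1056 CPM against 249 and 264 CPM (2.01, SE 0.16, adjusted p = 2.0e-07), and H2-Ab1, a class II chain, was at 426 and 451 CPM against 115 and 139.5 CPM (1.79, SE 0.17, adjusted p = 9.3e-07). Ciita, the class II transactivator, lay at 1.74 (SE 0.25), and Cd86 and Cd40, which co-stimulate T cells, at 2.42 (SE 0.17) and 2.20 (SE 0.38). H2-Oa, a chain that restrains peptide loading in B cells and dendritic cells, was the lower gene (-2.41, SE 0.51). Of 17 class I genes, 5 were higher, led by the class I transactivator Nlrc5 (2.29, SE 0.20), and none was lower. Over all genes tested, 11.1% were higher and 10.4% lower. B2m (0.83, SE 0.19), H2-K1 (0.96, SE 0.15) and H2-D1 (0.97, SE 0.14) had adjusted p below 0.05 but stayed under 2-fold.

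Other transcription factors that set myeloid fates were split, with 11 of 34 higher and 8 lower, beside 11.1% and 10.4% of all genes tested. Zeb2 (2.21, SE 0.18), Irf5 (2.19, SE 0.13) and Klf4 (1.74, SE 0.21), which act in monocytes and macrophages, were higher. Cebpe, which drives granulocyte maturation, was at 2.35 and 2.59 CPM against 119 and 130 CPM (-5.65, SE 0.37, adjusted p = 2.6e-08) and Ets1 at 0.955 and 5.18 CPM against 216 and 243 CPM (-6.24, SE 0.38, adjusted p = 1.2e-08). Several broadly used myeloid factors were close to equal. Spi1 (PU.1) was at 296 and 315 CPM against 250 and 248 CPM (0.29, SE 0.10, adjusted p = 0.039), Cebpa at 122 and 125 CPM against 122 and 120 CPM (0.03, SE 0.30), and Irf8 lay at 0.44 (SE 0.17).

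Of the housekeeping lists, those for ribosomes and the respiratory chain lay near the median of all genes. None of the 35 cytosolic ribosomal protein genes (median 0.16), 23 respiratory chain genes (median -0.08) and 16 ribosome biogenesis genes (median -0.12) was a DEG. Of 18 glycolysis genes 3 were lower in CX3CR1+ macrophages, beside 10.4% of all genes tested, and the list median was -0.44. Both CX3CR1+ libraries were below either F4/80- library for 12 of the 18, beside 35.6% of all genes tested. They were above for 2, beside 41.1%. The largest difference was that of the glucose transporter Slc2a3, at 4.52 and 9.07 CPM against 157.5 and 168 CPM (-4.59, SE 0.25, adjusted p = 6.5e-09). In the phagocyte NADPH oxidase, the membrane subunit gene Cybb was at 1776 and 1835 CPM against 1643 and 1790 CPM (0.07, SE 0.20), whereas the cytosolic subunit Ncf1 (-1.57, SE 0.16) and the GTPase Rac2 (-1.19, SE 0.18) were lower.

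**Figure D3:**
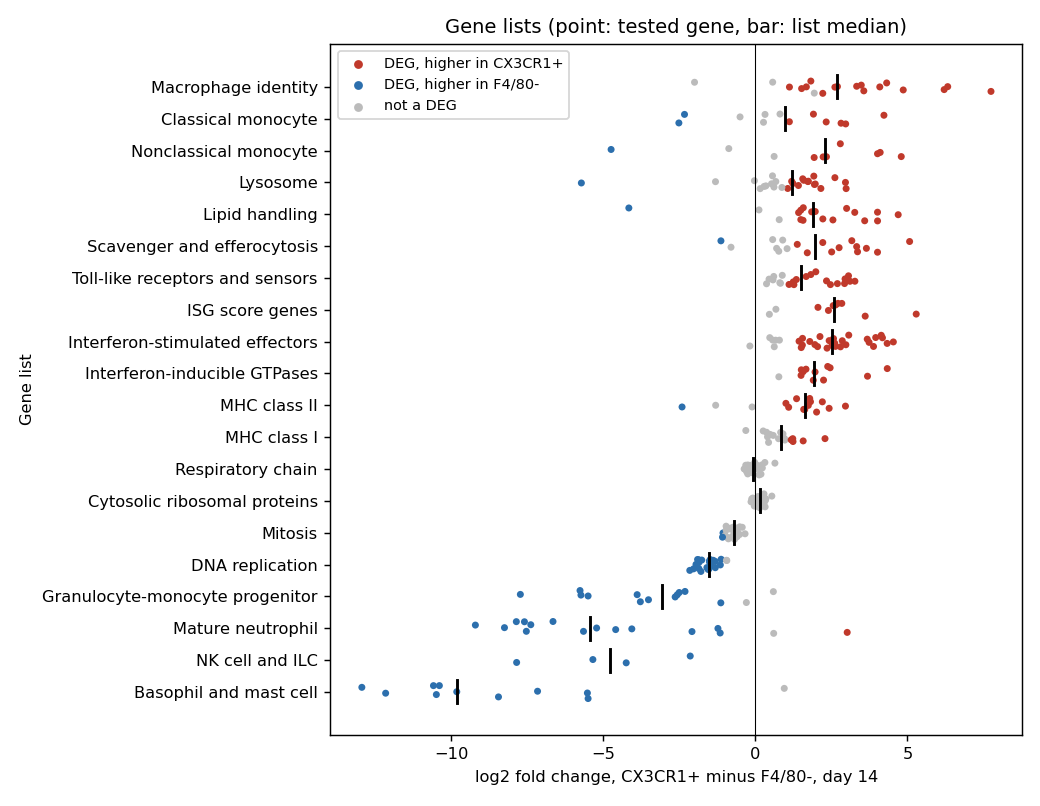
Log2 fold change of CX3CR1+ macrophages over F4/80- cells at day 14 for each tested gene of 20 lists, with red and blue points for DEGs, grey points for other genes and a black bar at the list median. The medians ran from -9.82 for the basophil and mast cell list to 2.70 for macrophage identity, with the ribosomal protein list at 0.16.

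The levels of these lists in the other sorted populations give them a scale. On the mean of log2(CPM + 1) over a list, the basophil list stood at 0.65 in CX3CR1+ macrophages, 6.46 in F4/80- cells, 4.98 in CD9+ macrophages and 2.09 in Ly6G+ neutrophils of day 14, each averaged over 2 libraries. The mature neutrophil list stood at 3.88, 8.26, 7.87 and 11.52 in the same order, and the progenitor list at 3.75, 6.76, 5.88 and 3.78. CX3CR1+ macrophages were thus the lowest of the 4 populations for basophil and mature neutrophil genes, while CD9+ macrophages held intermediate levels of both. The macrophage list stood at 5.66, 3.36, 6.38 and 3.56 in that order, and the ISG score list at 4.67, 2.58, 3.49 and 3.85. These levels are descriptive and the populations were not tested against each other here.

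**Figure D4:**
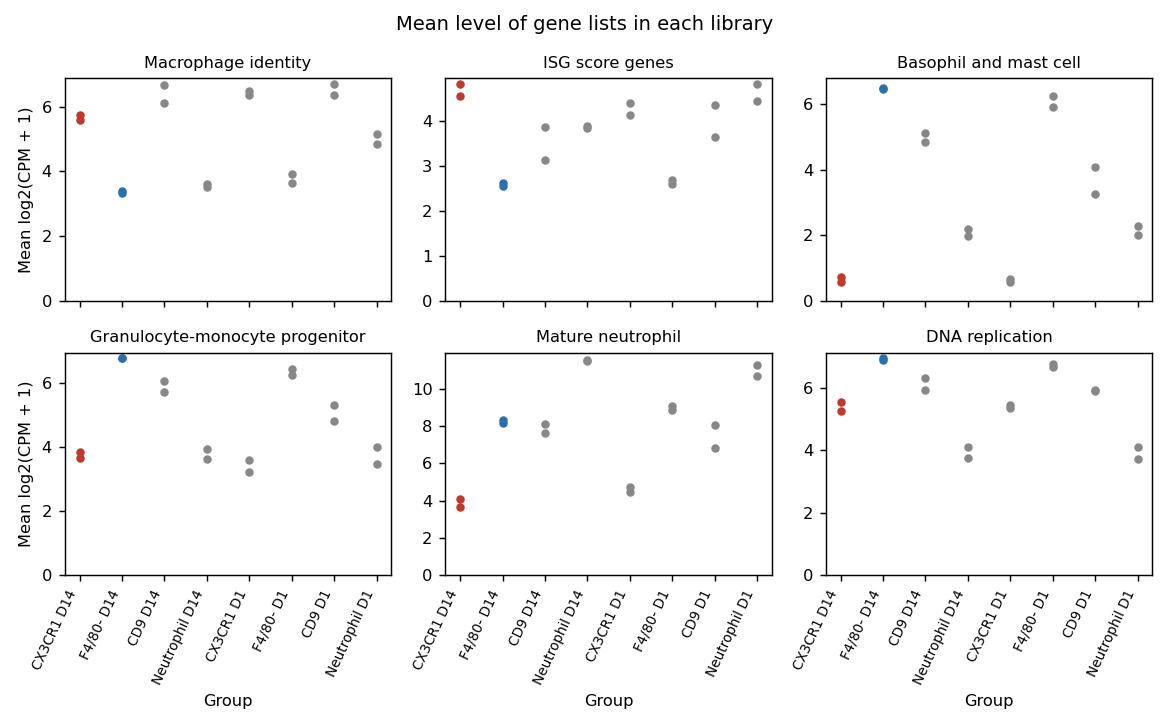
Mean of log2(CPM + 1) over the tested genes of 6 lists in each of the 16 libraries (1 point per library), with CX3CR1+ macrophages of day 14 in red, F4/80- cells of day 14 in blue and the other groups in grey. Basophil genes were lowest in the CX3CR1+ libraries of both days, and DNA replication genes were higher in F4/80- cells (6.94 at day 14) than in CX3CR1+ macrophages (5.40).

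The same contrast at day 1 after surgery, in 4 separate libraries, asked whether the differences of day 14 were already there. At day 1, 2533 genes (21.1%) were DEGs. Of the DEGs, 1841 were shared by both days with the same direction and 8 with opposite directions. The difference between days was itself tested as an interaction, and it was called for 121 genes (1.01%), of which 61 (0.508%) had moved toward CX3CR1+ macrophages at day 14 and 60 (0.500%) toward F4/80- cells. For most genes the test thus did not call a difference, which does not show that the days were equal. The count fell to between 56 and 79 when any of the 8 libraries was left out, the lowest being without CX3CR1+ replicate 1 or F4/80- replicate 2 of day 14.

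Of the 15 class II genes, 4 had an interaction toward CX3CR1+ macrophages at day 14 and none toward F4/80- cells. Cd74 differed by 0.68 at day 1 (means of 658 and 412 CPM) and by 2.01 at day 14 (means of 1035 and 256 CPM), an interaction of 1.33 (SE 0.23, adjusted p = 0.0070). H2-Ab1 had an interaction of 1.23 (SE 0.24, adjusted p = 0.016). With each of the 8 libraries left out in turn, Cd74 lost its call once, without F4/80- replicate 1 of day 14 (1.28, adjusted p = 0.052), and H2-Ab1 kept it in only 2 fits, its adjusted p reaching 0.12 without that library. Flt1 was at means of 6.6 and 4.37 CPM at day 1 and 28.5 and 1.87 CPM at day 14 (interaction 3.32, SE 0.39, adjusted p = 4.5e-04). Mmp8 was at means of 218 and 150 CPM at day 1 and at 157 and 19.3 CPM at day 14 (2.47, SE 0.38, adjusted p = 0.0043). In Mmp8 the CX3CR1+ and F4/80- means were both lower at day 14, and the F4/80- mean the more so.

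Of the 16 mature neutrophil genes, 3 had an interaction toward CX3CR1+ macrophages (Mmp8, Mmp9 and Retnlg) and 4 toward F4/80- cells. S100a8, among the latter, averaged 296 CPM in CX3CR1+ macrophages at day 1 and 31.0 CPM at day 14, while F4/80- cells averaged 4031 and 5166 CPM (interaction -3.62, SE 0.66, adjusted p = 0.012). The call for S100a8 held in 3 of the 8 fits with a library left out and was weakest without CX3CR1+ replicate 1 of day 14 (-3.28, adjusted p = 0.10). Lrg1, a secreted glycoprotein of neutrophil granules, averaged 53.2 and 0.935 CPM in CX3CR1+ macrophages and 103 and 78.9 CPM in F4/80- cells (-5.42, SE 0.42, adjusted p = 2.1e-05). C5ar1, the receptor for complement C5a, was not a DEG at day 1 (0.52) and was lower at day 14 (-1.85), with an interaction of -2.37 (SE 0.22, adjusted p = 5.6e-05). Spp1, which encodes osteopontin, was higher in CX3CR1+ macrophages at day 1 by 2.21, at means of 531 and 115 CPM, and stood at 14.8 and 20.5 CPM against 17.4 and 15 CPM at day 14 (interaction -2.09, SE 0.33, adjusted p = 0.0051). Retnlg and Mmp9 were less unequal at day 14, when their F4/80- mean was lower and their CX3CR1+ mean was higher. In CX3CR1+ macrophages Retnlg averaged 1.00 CPM at day 1 and 4.85 CPM at day 14, and Mmp9 averaged 3.48 and 8.60 CPM. In F4/80- cells Retnlg averaged 110.1 CPM at day 1 and 11.4 CPM at day 14 (interaction 5.59, SE 0.52, adjusted p = 5.6e-05). Mmp9 averaged 469 and 36.5 CPM there (5.03, SE 0.75, adjusted p = 0.0033).

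**Figure D5:**
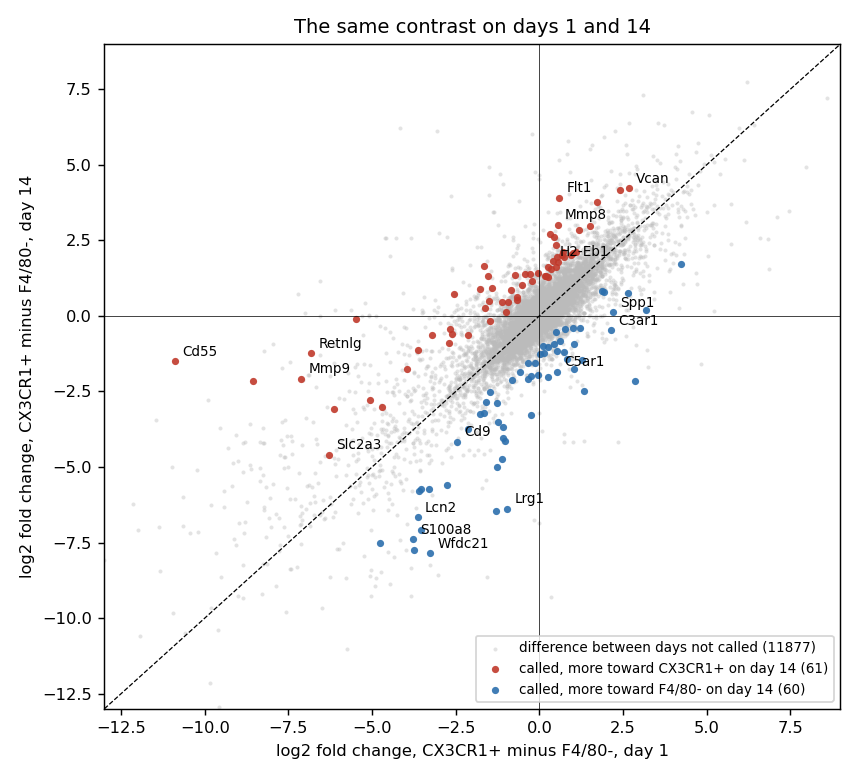
Log2 fold change of CX3CR1+ macrophages over F4/80- cells at day 14 (vertical) against day 1 (horizontal) for the 11998 genes tested, with the line of equality dashed. The 61 genes whose difference moved toward CX3CR1+ macrophages at day 14 are red and the 60 that moved toward F4/80- cells are blue, while the 11877 others are grey.

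Several matrix and haemoglobin genes passed the day 14 test only with replicate 2 of the CX3CR1+ population in the fit. Their calls were lost in other fits as well. That was so for Col1a1, Col3a1 and Hbb-bs without either F4/80- library and for Prg4 without F4/80- replicate 2. Col3a1 also lost its call with DESeq2. Prg4, the lubricin of synovium and cartilage, was at 0.955 and 53.3 CPM against 0.580 and 0.163 CPM (6.12, SE 1.53, adjusted p = 0.0057), and without that library it lay at 1.31 (adjusted p = 0.57). Col1a1, type I collagen of bone and tendon, was at 1.74 and 35.1 CPM against 2.46 and 3.01 CPM (2.74, SE 0.90) and turned to -0.66 (adjusted p = 0.60). Col3a1 was at 0 and 30.4 CPM against 0 and 0.407 CPM (6.23, SE 2.03) and turned to -4.53 (adjusted p = 0.58) on a single library without counts. The haemoglobin gene Hbb-bs was at 4.52 and 36.9 CPM against 3.48 and 4.39 CPM (2.39, SE 0.71) and lay at 0.19 without the library (adjusted p = 0.88). Sparc, a matrix glycoprotein, was at 3.73 and 5.64 CPM against 0.0725 and 0.325 CPM (4.53, SE 1.23) and missed the threshold without F4/80- replicate 1 (3.80, adjusted p = 0.094). Of these genes, Sparc was above both F4/80- libraries by a similar amount in the 2 pools, and Prg4, Col1a1, Col3a1 and Hbb-bs were not.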

How the data were processed

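Bulk RNA-seq was made from sorted myeloid cells with the RNeasy Plus Micro and SMART-Seq Stranded kits. Per the study's methods, the authors trimmed reads with Cutadapt, used STAR for alignment (mm10) and tallied exonic reads per Gencode gene, and they deposited raw counts per gene for 16 libraries (8 groups of 2). Whether the counting used strand is not given in the sources used here, so overlapping genes are uncertain. The table held 20200 genes, the lowest with a total of 17 counts, and all 16 columns matched a label.

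Genes with a mean of at least 3 CPM in at least 1 group were kept (11998). The deposited counts were fitted over all 16 libraries with edgeR's quasi-likelihood test (edgeR 4.0.16, R 4.3.3) with TMM factors and 1 mean per group. DEGs had a Benjamini-Hochberg adjusted p below 0.05 over all genes tested and a log2 fold change of at least 1 in size. The difference between days was the contrast of the day 14 and day 1 contrasts in the same fit. Before use, the method recovered most known changes on simulated data in which all groups shared 1 mean profile and all genes 1 spread. That setting was simpler than these populations, so it does not measure recovery here. The replicates are pools of mice, so p-values measure the spread between pools, and an exact permutation test of 2 against 2 could not go below 0.333. Count intervals and floors of 3 counts per library cover counting error only.

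The comparison and the 43 gene lists were chosen with earlier results of these data known. The genes named were the sort antigens, the 15 DEGs with the highest and the 15 with the lowest fold change whose libraries did not overlap and whose higher mean was at least 10 CPM, up to 4 DEGs per list and direction together with defining markers near 0, genes that the study names, and the 5 interaction DEGs with the largest values in each direction. A few more members were named after their values were seen. Alternatives were DESeq2 1.42.0, other filters, scalings, samples and thresholds, a replicate block, and leaving out each library. Leaving out the neutrophil libraries or the 50 genes with the most counts was chosen after seeing the data. Promoters were RefSeq windows (GRCm38.p6), and motifs were searched as exact letters on both strands. A GATA site (AGATAAG) was searched as well. It was found in 1 of 13 promoters of the basophil and mast cell list (7.69%). The share was 2.45% for the genes tested and 3.5% for all 27025 promoters.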

Additional observations from a re-analysis of the deposited data

Results flagged for a closer look

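The CX3CR1+ to F4/80- difference was itself different at day 14 and at day 1 for 32 of the genes or list members examined, by the interaction term of the edgeR fit (log2 fold change at day 14 minus that at day 1, adjusted p below 0.05). No explanation was tested for any of them. Of the 32, 15 kept the call when any of the 8 libraries was left out: C5ar1 (-2.37), Cd63 (-2.43), Cd9 (-1.71), Cdh1 (-4.01), Flt1 (3.32), Igf2r (-3.75), Il18rap (-2.17), Itga6 (-2.30), Itgb3 (1.99), Lrg1 (-5.42), Mmp8 (2.47), Mmp9 (5.03), Retnlg (5.59), Spp1 (-2.09) and Wfdc21 (-4.60). Cdh1, which encodes E-cadherin, averaged 7.43 CPM in CX3CR1+ macrophages at day 1 and 0.495 CPM at day 14, while F4/80- cells stood at 98.5 and 108 CPM. Itga6, the integrin alpha 6 chain, averaged 73.2 and 16.5 CPM in CX3CR1+ macrophages and 60.8 and 67.4 CPM in F4/80- cells.

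The other 17 lost the call without at least 1 library. Toward F4/80- cells at day 14 these were AA467197 (-5.17), Adam8 (-1.39), C3ar1 (-2.63), C5ar2 (-1.36), Lcn2 (-3.02), S100a8 (-3.62) and S100a9 (-2.77). Toward CX3CR1+ macrophages they were Cd55 (9.38), Cd74 (1.33), H2-Aa (1.13), H2-Ab1 (1.23), H2-Eb1 (1.41), Ifitm3 (1.43), Oas2 (1.66), Pik3c2b (3.06), Slc2a3 (1.71) and Vcan (1.55). The size for Cd55 is no measure of fold, since neither CX3CR1+ library of day 1 held a count, and AA467197 had 1 count in the CX3CR1+ libraries of day 14. H2-Aa, H2-Eb1, Vcan and Pik3c2b kept the call in 0 of the 8 fits with a library left out.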

How the results depend on the processing

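At day 14, 2578 genes were called. The count was 1279 (578 higher, 701 lower) when every group had to pass the CPM filter, which left 7687 genes to test, and 4438 (2354 higher, 2084 lower) with no fold threshold. It ran from 2166 to 2316 when a library was left out (1088 to 1200 higher, 1053 to 1135 lower), and it was 2636 with DESeq2. The interaction count of 121 (61 and 60) was 217 with DESeq2 (111 and 106), 307 when only the libraries compared were fitted (159 and 148), 48 when a 1.5-fold change was tested for (17 and 31), and 56 to 79 when a library was left out (24 to 40 and 29 to 41). The causes were not tested. Without the neutrophil libraries, 39.8% of the interaction calls lay toward CX3CR1+ macrophages, against 50.4% with them. Without CX3CR1+ replicate 2 of day 14, Col1a1 (-0.66) and Col3a1 (-4.53) reversed, against at most 3.66 and 10.72 without another library. No other reversal occurred among 193 named genes. With the replicate block, 2577 genes were called at day 14 and 142 in the interaction. The labels state no shared source for like-numbered libraries, but the paper's total of mice is too small for a separate pool per library. Like-numbered libraries of the populations may therefore come from the same mice, and the main fit did not pair them. Deviations of like-numbered libraries correlated at 0.14 (day 14) and 0.07 (day 1). The mature neutrophil count fell from 14 to 7 without the 50 genes with the most counts, since members were among them. At these depths, genes under 3 CPM in every group could not be compared.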

Other observations

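Several lists that the report does not take up had small or mixed differences at day 14. Their counts stand beside 11.1% higher and 10.4% lower over all genes tested. Of 17 conventional dendritic cell genes, 4 were higher in CX3CR1+ macrophages and 3 lower (median -0.12), and the count of lower genes was 0 without CX3CR1+ replicate 1 and 1 without any other single library of the comparison. Zbtb46, a factor of the dendritic lineage, was at 1.56 and 2.31 CPM against 6.09 and 6.75 CPM and did not pass (adjusted p = 0.053), and Flt3, a growth factor receptor of dendritic and progenitor cells, was at 21.5 and 27.0 CPM against 29.7 and 29.8 CPM. Of 8 osteoclast genes tested, 2 were higher and none was lower. Of these, Ocstamp lost its call without F4/80- replicate 1 (2.26, adjusted p = 0.10), and Tnfrsf11a, which encodes RANK, was at 20.8 and 25.3 CPM against 3.70 and 5.53 CPM (2.32, SE 0.37, adjusted p = 1.5e-04), while the effector Ctsk was at 0.507 to 6.83 CPM in the 4 libraries and Acp5 did not pass (-0.23).

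Among 22 genes of growth factors and matrix, 9 were higher and 2 lower (median 1.29, or 0.81 with genes near 0 at their bound). Thbs1, which encodes thrombospondin 1, was at 1065 and 1106 CPM against 90.4 and 116 CPM (3.40, SE 0.29, adjusted p = 2.6e-07), and Tgfbi, an extracellular protein induced by TGF-beta, was at 1130 and 1195 CPM against 227 and 207 CPM (2.42, SE 0.18). Igf1, a growth factor of repair macrophages, was at 2.26 and 2.31 CPM against 0.145 and 0 CPM, a count ratio of 29.8 (exact 95% interval 7.84 to 253), where CD9+ macrophages averaged 34.8 CPM. Arg1 was at 0.782 and 1.30 CPM against 0 and 0.163 CPM. Among 18 integrin and adhesion genes, 5 were higher and 2 lower. Itga4, a chain of the VCAM-1 receptor, was at 957 and 1078 CPM against 242 and 244 CPM (2.07, SE 0.13, adjusted p = 1.7e-08), and Itga2b, known from platelets and also found on mast cell and progenitor lineages, was at 1.48 and 1.57 CPM against 75.7 and 74.4 CPM (-5.61, SE 0.32), with Pf4 and Ppbp below 1 CPM in all 4 libraries. Of 14 complement genes 6 were higher and 1 lower (median 0.35), of 25 cytokine receptors 8 and 6 (median 0.60), of 9 Fc receptors 2 and 2 (median 0.74), and of 11 eosinophil genes 3 and 4 (median -0.35). Of the higher eosinophil genes, Ear1 lost its call whichever of the 4 libraries was left out. Ear6 lost it without CX3CR1+ replicate 1 or either F4/80- library. Of the higher Fc receptors, Fcgrt lost its call without either F4/80- library, at 1.31 in both fits. Il10ra, the ligand-binding chain of the IL-10 receptor, was at 319 and 348 CPM against 64.4 and 54.3 CPM (2.49, SE 0.17, adjusted p = 4.0e-08).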
